A study of Mus musculus with 6 samples.

Results

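Genes that promote or prevent deposition of calcium phosphate in the artery wall were examined in the aorta of DKO mice and ApoE-KO mice. A list of 10 such genes was read from the deposited array values, keeping for each gene the probe set that names it alone and has the highest mean over the 6 arrays. With this rule 7 of the 10 genes have a value, where 19752 genes in all have such a probe set: Phex, Ank, Alpl, Mgp, Ibsp, Sox9 and Tnfrsf11b. Each of the 7 has 1 such probe set, so the mean over arrays decided nothing. The list itself was selected on earlier results of the same 6 arrays, in which the paired Phex difference was known. Enpp1, Spp1 and Runx2 are not analysed here.

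The DKO group held 3 aorta samples of genotype apoe-/- adora1-/-, lacking apolipoprotein E and the adenosine A1 receptor, and the ApoE-KO group held 3 aorta samples of genotype apoe-/-. All mice were C57BL/6 and 20 weeks old, untreated, and both groups lacked Apoe. The series text calls the comparison group Adora1 knockouts, while each of its sample labels names Apoe, which is the reading used here. No wild-type and no Adora1-only aorta was among the arrays, no label names the cells in which Adora1 was lost, and none says whether replicate numbers stand for single animals or pools, so p-values measure the spread between these arrays.

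Mineralisation of the artery wall depends on the balance of phosphate and pyrophosphate outside the cell. Ank carries ATP and pyrophosphate out of the cell, Enpp1 makes pyrophosphate from ATP, and the phosphatase encoded by Alpl splits pyrophosphate, an inhibitor of crystal growth, into phosphate. Matrix Gla protein (Mgp) blocks calcification in smooth muscle and cartilage, and mice without it calcify their arteries. The transcription factors Runx2, of bone, and Sox9, of cartilage, are known from the skeleton and appear in diseased arteries. So are the acidic matrix proteins Spp1 and Ibsp, and osteoprotegerin (Tnfrsf11b), a decoy receptor for the osteoclast factor RANKL. Phex is a membrane endopeptidase of bone and tooth cells whose loss causes phosphate wasting, and which cleaves acidic peptides of matrix proteins such as Spp1.

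The 250 bases before the annotated start site of Phex and Ibsp are shown because these are the measured genes that stood higher in the DKO array of every pair. Both are RefSeq sequences of assembly GRCm38.p6, at chrX:157415287-157415536 on the minus strand for Phex and chr5:104299037-104299286 on the plus strand for Ibsp, written 5′ to 3′. Capitals mark matches to TATAAA and CCAAT on either strand (TTTATA and ATTGG read as their reverse complements).
Phex: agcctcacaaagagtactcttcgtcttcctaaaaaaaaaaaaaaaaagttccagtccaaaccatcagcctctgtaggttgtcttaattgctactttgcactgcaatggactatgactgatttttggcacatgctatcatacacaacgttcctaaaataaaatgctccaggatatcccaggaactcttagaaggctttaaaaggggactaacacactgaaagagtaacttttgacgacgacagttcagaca
Ibsp: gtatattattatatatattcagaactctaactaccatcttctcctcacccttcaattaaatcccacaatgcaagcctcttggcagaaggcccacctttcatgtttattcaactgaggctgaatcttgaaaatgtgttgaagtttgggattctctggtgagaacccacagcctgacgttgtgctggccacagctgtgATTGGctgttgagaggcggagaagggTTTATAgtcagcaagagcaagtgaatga
The Ibsp window held 1 match to TATAAA, starting 28 bases before the start site, and 1 to CCAAT, starting 54 bases before it, and the 2 do not overlap. The Phex window held neither, and neither window held TGTGGT, the core of the sequence that Runx factors bind, on either strand (reverse complement ACCACA). Of 32851 mouse promoter windows of this length, 12.37% held TATAAA, 33.85% held CCAAT and 14.05% held TGTGGT. The G and C share was 39.2% in the Phex window and 43.6% in the Ibsp window, against a median of 52.4% over all windows. RefSeq windows were also at hand for Ank and Alpl, which has 2 start sites. The Ank window was 81.2% G and C and the Alpl windows 68.4% and 56.0%. Of these, only the Alpl window of 56.0% held any of the 3 motifs, 1 match to TATAAA starting 192 bases before its start site.

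Phex set the groups apart most clearly, with log2 intensities of 9.11, 8.94 and 8.79 on DKO replicates 1 to 3, against 8.35, 8.10 and 8.10 on ApoE-KO replicates 1 to 3. The lowest DKO array lay above the highest ApoE-KO array, so the groups did not overlap. Groups without overlap were seen in 12% of all 25254 probe sets and in 1 of the 7 genes, Phex. The group means were 8.95 ± 0.16 in DKO and 8.18 ± 0.14 in ApoE-KO (SD, n = 3 each), a DKO minus ApoE-KO difference of 0.76, or 1.70-fold.

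The 3 same-numbered pairs gave Phex differences of 0.76, 0.84 and 0.70, with an SD over pairs of 0.07. Without pairing, the 95% interval of the difference ran from 0.49 to 1.04 and the gene did not pass a threshold of 0.05 (limma, adjusted p = 0.467 over all probe sets). With the replicate number as a block, the interval narrowed to 0.61 to 0.92 and Phex rose (limma, adjusted p = 0.0226), in fold terms 1.53 to 1.89. It was the only one of the 7 genes to pass the paired fit, which passed 0.174% of all probe sets, and 0 of the 7 passed without pairing, where 0% of all probe sets passed. At an unadjusted p under 0.05 there were 2 of the 7 with the block, Phex and Ibsp, against 16.2% of all probe sets, and 1 of the 7 without it, Phex, against 5.62%. The list was drawn up with the paired Phex result known, so its pass is a description and no independent support. In the paired fit without both replicate 2 arrays Phex did not pass (0.73, adjusted p = 0.254), while it passed without both replicate 1 arrays (0.77, adjusted p = 0.00843) and without both replicate 3 arrays (0.80, adjusted p = 0.0307).

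**Figure D1:**
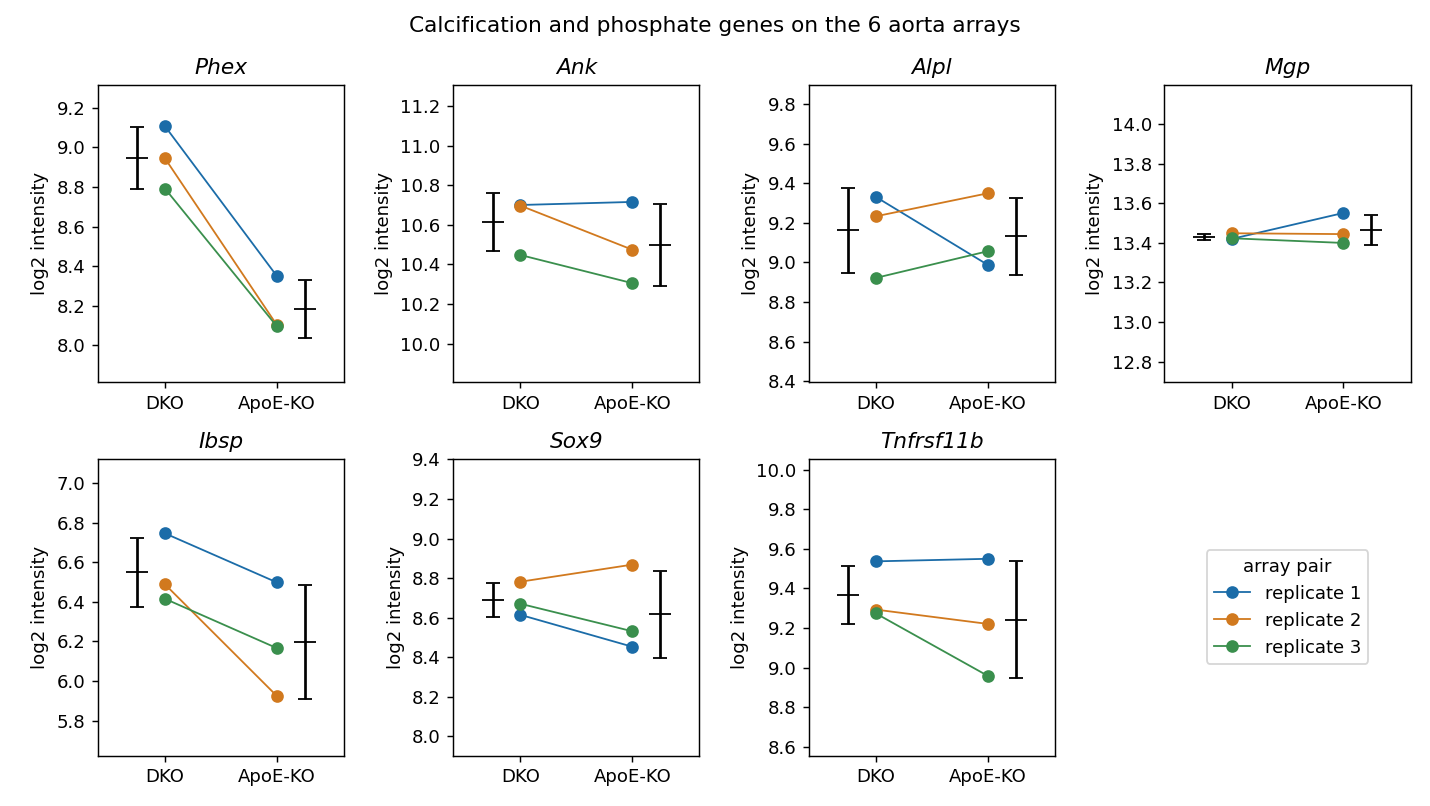
Log2 intensity (vertical axes, each spanning the same number of log2 units) of 7 calcification and phosphate genes on DKO arrays (left) and ApoE-KO arrays (right). Coloured points are arrays, lines join arrays of one replicate number, and black bars are the mean ± SD of 3 arrays; Phex is the gene in which all DKO arrays, at 8.79 to 9.11, lie above all ApoE-KO arrays, at 8.10 to 8.35.

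Of the genes that set pyrophosphate outside the cell, Ank, the transporter, read 10.70, 10.70 and 10.45 in DKO against 10.72, 10.47 and 10.31 in ApoE-KO. The groups overlapped, and replicate 1 had the same level in both to within 0.02. The DKO minus ApoE-KO difference of 0.12 had a paired 95% interval of -0.04 to 0.27 (limma, adjusted p = 0.416). Alpl, the phosphatase that removes pyrophosphate, read 9.33, 9.23 and 8.92 in DKO against 8.99, 9.35 and 9.06 in ApoE-KO. Its pairs disagreed in direction, at 0.34, -0.12 and -0.13, and the groups overlapped. The Alpl difference of 0.03 (paired 95% interval -0.21 to 0.28; limma, adjusted p = 0.912) was smaller than its spread over pairs of 0.27.

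Mgp, the calcification inhibitor, read 13.42, 13.45 and 13.42 in DKO against 13.55, 13.44 and 13.40 in ApoE-KO. All 6 arrays lay within 0.15, the narrowest range of the 7 genes, and the DKO arrays lay inside the range of the ApoE-KO arrays. The difference was -0.03, with a 95% interval of -0.18 to 0.11 without pairing and -0.15 to 0.08 with it. Neither fit passed (limma, adjusted p = 0.954 and 0.775), and the intervals do not exclude larger changes. Brightness differs between probe sets for reasons other than RNA amount, so genes were not ranked by level.

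Ibsp, the bone sialoprotein that can start crystal formation in bone, read 6.75, 6.49 and 6.42 in DKO against 6.50, 5.92 and 6.17 in ApoE-KO. Every pair was higher in DKO, by 0.25, 0.56 and 0.25, but ApoE-KO replicate 1 lay above both DKO replicate 2 and DKO replicate 3. The difference of 0.35 had a 95% interval of -0.02 to 0.72 without pairing and 0.13 to 0.57 with it, and neither fit passed (limma, adjusted p = 0.862 and 0.158). All 3 pairs ran in one direction in 2 of the 7 genes, Phex and Ibsp, and in 40.3% of all probe sets. The Ibsp probe set was dim, at the 19.6th percentile of mean intensity over all probe sets, and was the 1 of the 7 below the 40th percentile, so its reading is the least secure.

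Sox9, the transcription factor of cartilage formation, read 8.61, 8.78 and 8.67 in DKO against 8.45, 8.87 and 8.53 in ApoE-KO. The DKO arrays lay inside the range of the ApoE-KO arrays, with pair differences of 0.16, -0.09 and 0.14. The mean difference was 0.07 (paired 95% interval -0.10 to 0.25; limma, adjusted p = 0.685). Tnfrsf11b, the decoy receptor that restrains osteoclast formation, read 9.54, 9.29 and 9.27 in DKO against 9.55, 9.22 and 8.96 in ApoE-KO. Replicate 1 was high in both groups, and ApoE-KO replicate 3 was the lowest array. The pair differences of -0.01, 0.07 and 0.32 averaged 0.12 (paired 95% interval -0.06 to 0.31; limma, adjusted p = 0.477).

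**Figure D2:**
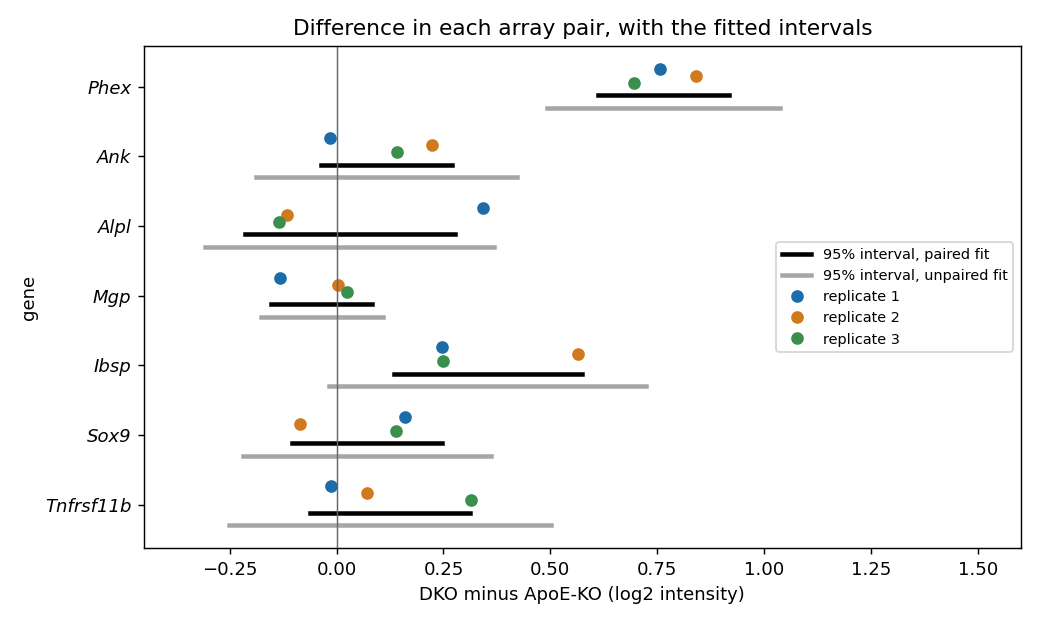
DKO minus ApoE-KO difference in log2 intensity (horizontal axis) of each gene (vertical axis) in the 3 array pairs (coloured points), with the 95% intervals of the paired fit (black) and the unpaired fit (grey). Phex lies between 0.70 and 0.84 in every pair, while the points of Ank, Alpl, Mgp, Sox9 and Tnfrsf11b fall on both sides of 0 and the unpaired interval of Ibsp reaches -0.02.

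Arrays of one replicate number stood together in some of these genes. Phex, Ibsp and Tnfrsf11b were each highest on replicate 1 in both groups, and Ank was lowest on replicate 3 in both. Alpl did not share this, with replicate 1 highest in DKO and lowest in ApoE-KO. The paired intervals were narrower than the unpaired ones for all 7 genes. What a replicate number shares is not stated in the labels.

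For the 3 genes with the widest range over the 6 arrays, the nearest of 17620 other named genes were found by the root mean square difference between profiles centred on their means, in log2 units. Phex, with a range of 1.01, was nearest to Tceal1 (0.12), Rimklb, a glutamate ligase (0.12), and Cspg4b (0.13), which were higher in DKO by 0.57, 0.73 and 0.61. Ibsp, with a range of 0.82, was nearest to Osbpl3, an oxysterol-binding-like protein (0.025), Leprot (0.046) and Akap6, an anchoring protein for protein kinase A (0.047). Tnfrsf11b, with a range of 0.59, was nearest to Ppp4r2, a phosphatase subunit (0.019), Abtb2 (0.032) and Urod, an enzyme of haem synthesis (0.032). These are likenesses over 6 arrays that share genotype groups and replicate numbers, and carry no test.

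A further 91 measured genes of mineral metabolism, of 96 listed in 6 groups, were read from the same fits. Of these, 41 were higher and 50 lower in DKO, with a median difference of -0.015 against -0.0024 over all probe sets. In the paired fit 1 rose, 0 fell and 90 did not pass, where 0.095% of all probe sets rose and 0.0792% fell, and without pairing 0 passed (limma, threshold 0.05). At an unadjusted p under 0.05 with the block, 18 were higher and 11 lower, where 16.2% of all probe sets reached that p, and the groups did not overlap in 15, against 12% of all probe sets.

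The gene that rose was Epyc, epiphycan, a small proteoglycan of growth cartilage. It read 6.98, 7.17 and 7.27 in DKO against 6.18, 6.36 and 6.24 in ApoE-KO, with no overlap, and the difference was 0.88 (limma with the block, adjusted p = 0.0294; without it, adjusted p = 0.368). The Epyc probe set was dim, at the 25.1th percentile of mean intensity over all probe sets. Like that of Ibsp, it lay below the 40th percentile, so the Epyc reading is also less secure. Epyc did not pass in the paired fit without both replicate 2 arrays (0.91, adjusted p = 0.254). In its group of 18 measured bone and cartilage matrix genes, 9 were higher and 9 lower in DKO, with a median of 0.016. Chad, the cartilage protein chondroadherin, differed by 0.48 and Cytl1, a secreted protein of cartilage, by 0.38, and neither passed (limma with the block, adjusted p = 0.195 and 0.0832). Chad read 8.39 on ApoE-KO replicate 3, close to the DKO arrays at 8.04 to 8.46, and 7.52 and 7.57 on the other 2 ApoE-KO arrays.

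Of 19 phosphate transport and hormone genes, 7 were higher and 12 lower in DKO (median -0.04), and 0 passed either fit, with 5 at an unadjusted p under 0.05 in the paired fit, which 16.2% of all probe sets reached. Xpr1, the phosphate exporter, came closest at 0.38 (limma with the block, adjusted p = 0.0730). It read 11.12, 10.91 and 10.79 in DKO against 10.81, 10.41 and 10.46 in ApoE-KO, so only DKO replicate 3 lay below an ApoE-KO array. Slc20a2, a sodium-phosphate cotransporter whose loss causes brain calcification, differed by 0.21, and Fgf23, the bone hormone that makes the kidney excrete phosphate, by -0.27 (adjusted p = 0.194 and 0.225). Slc34a2 was counted as lower, at -0.24, through the replicate 3 pair alone, as its other pairs differed by 0.06 and 0.23. It read 10.15 on DKO replicate 3 and 11.15 on ApoE-KO replicate 3, against 6.38 to 6.61 elsewhere. Lung epithelium genes also stood high on those replicate 3 arrays, and their part in the Slc34a2 values was not tested.

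Of 11 genes of pyrophosphate and nucleotide turnover, 5 were higher and 6 lower in DKO (median -0.02), and 0 passed. Ppa1, a soluble pyrophosphatase inside cells, read 9.38, 9.27 and 9.18 in DKO against 9.72, 9.89 and 9.78 in ApoE-KO. The Ppa1 groups did not overlap, and the difference was -0.52 (limma with the block, adjusted p = 0.0551). Smpd3, a sphingomyelinase needed for bone mineralisation, differed by -0.36, and Enpp3, an ectonucleotidase related to Enpp1, by 0.38 (adjusted p = 0.146 and 0.148).

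Circulating and vitamin K dependent inhibitors split into 5 higher and 4 lower genes (median 0.0023), and 0 of 9 passed. Pros1, the anticoagulant protein S, differed by 0.25, Vkorc1, the enzyme that recycles vitamin K for the carboxylation of Mgp, by 0.13, and its relative Vkorc1l1 by 0.11 (limma with the block, adjusted p = 0.148, 0.268 and 0.414). BMP ligands, inhibitors and osteochondrogenic factors split into 9 higher and 12 lower genes (median -0.04), and 0 of 21 passed. Nog, the BMP antagonist noggin, differed by -0.23, the BMP receptor gene Bmpr2 by 0.14 and Sost, the Wnt inhibitor sclerostin, by 0.20 (adjusted p = 0.199, 0.237 and 0.248). Nog read 7.49, 7.46 and 7.31 in DKO against 7.67, 7.64 and 7.65 in ApoE-KO, without overlap.

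Osteoclast genes split into 6 higher and 7 lower (median -0.06), and 0 of 13 passed. Acp5, the tartrate-resistant acid phosphatase of osteoclasts and macrophages, differed by -0.48, Dcstamp, which serves osteoclast fusion, by -0.31, and Tnfrsf11a, the receptor for RANKL, by 0.27 (limma with the block, adjusted p = 0.119, 0.185 and 0.180). The Dcstamp probe set was dim, at the 19.5th percentile of mean intensity over all probe sets. Acp5 read 8.58, 9.36 and 9.09 in DKO against 9.39, 9.69 and 9.40 in ApoE-KO, without overlap and with the lowest value on DKO replicate 1. The mean of 12 macrophage markers was also lowest on that array, at 8.73, against 9.90 and 9.56 on the other DKO arrays and 9.31 to 9.55 in ApoE-KO. By pair, that mean differed by -0.77, 0.35 and 0.24, and Acp5 by -0.81, -0.34 and -0.30. The part of macrophage content in the osteoclast values was not tested. In whole aorta, fewer cells of a type and less RNA per cell cannot be told apart.

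**Figure D3:**
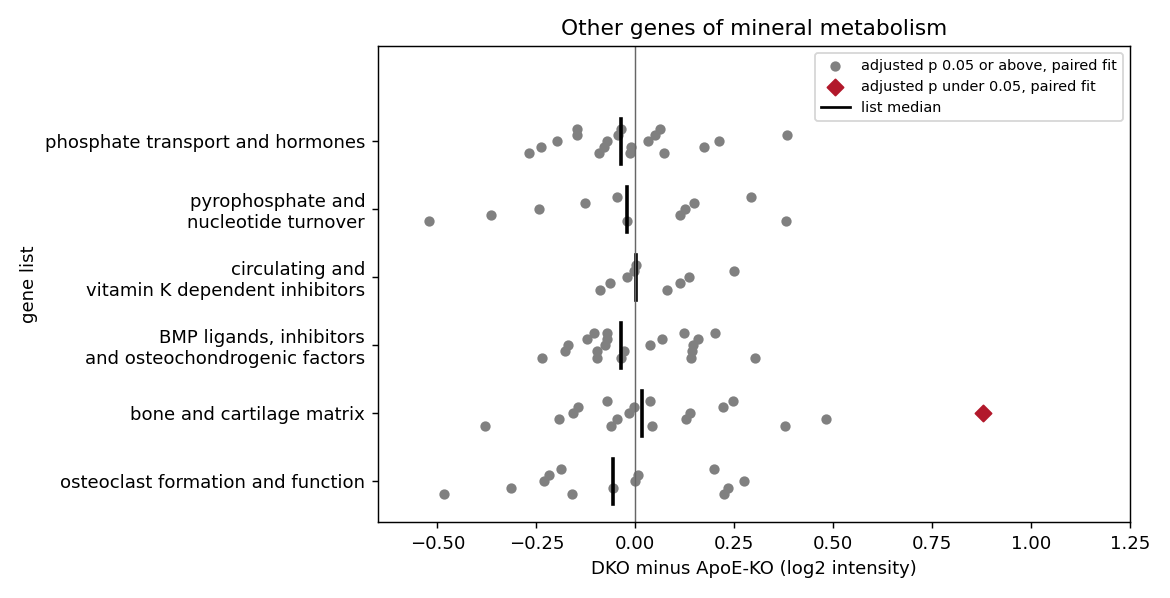
DKO minus ApoE-KO difference in log2 intensity (horizontal axis) of each measured gene in 6 lists of mineral metabolism (vertical axis). Grey points did not pass the paired fit, the red diamond is Epyc at 0.88, and black lines are list medians, which lie between -0.06 and 0.016.

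The arrays carried the contractile smooth muscle genes of an aorta, whose mean of 10 markers ran from 12.28 to 12.41 in DKO and from 12.15 to 12.38 in ApoE-KO. Of these markers 8 were higher and 2 lower in DKO, and their mean differed by 0.03, 0.13 and 0.10 in the pairs. All 7 mesothelium markers were higher in DKO, with means of 8.03, 8.48 and 8.23 in DKO against 7.46, 7.40 and 7.76 in ApoE-KO. Of the DKO arrays, replicate 1 was lowest for these markers, highest for Phex and lowest for Epyc, and the part of mesothelium in the Phex and Epyc values was not tested. Both replicate 3 arrays carried lung epithelium genes, with a mean of 10 markers of 8.90 in DKO and 9.49 in ApoE-KO, against 6.62 and 6.71 on the other DKO arrays and 6.75 and 6.74 on the other ApoE-KO arrays. Without the replicate 3 pair, the paired differences were 0.80 for Phex and 0.80 for Epyc, and both passed (limma, adjusted p = 0.0307 and 0.0416). Of the other lists, 7 of 8 white adipocyte markers were lower in DKO, while 6 of 7 endothelium and 4 of 6 adventitial fibroblast markers were higher.

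**Figure D4:**
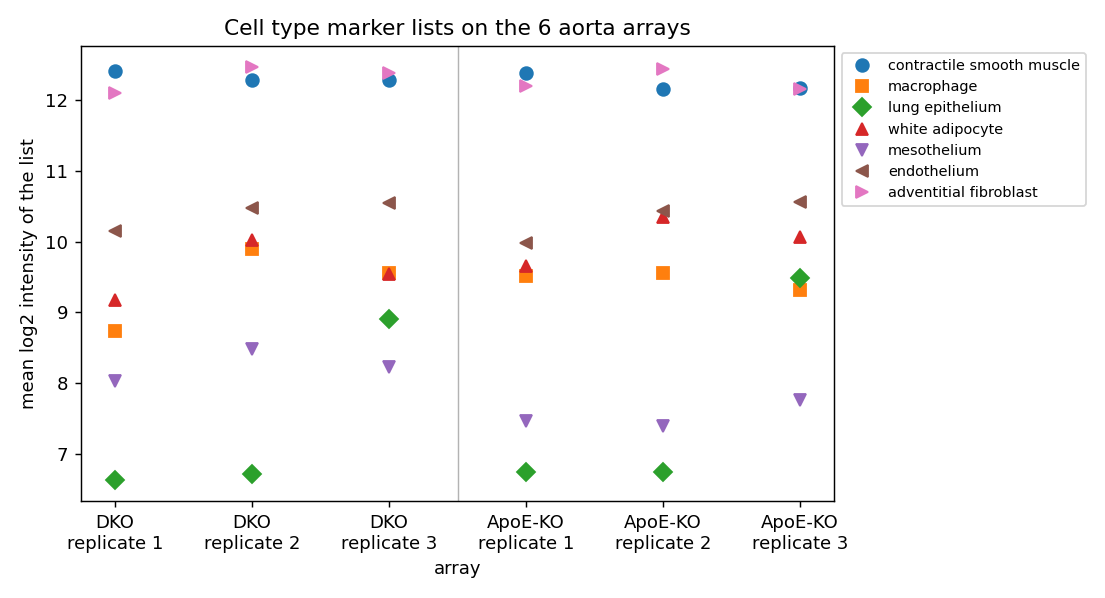
Mean log2 intensity (vertical axis) of 7 cell type marker lists on each of the 6 arrays (horizontal axis), DKO left and ApoE-KO right of the grey line. Lung epithelium markers stand at 8.90 and 9.49 on the replicate 3 arrays and at 6.62 to 6.75 elsewhere, macrophage markers are lowest on DKO replicate 1, and mesothelium markers are higher on all DKO arrays.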

How the data were processed

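Aortic RNA of 6 samples was measured on Affymetrix whole-transcript arrays, 1 per sample. The deposited values are log2 intensities for 25254 probe sets, and per the submitters' processing notes RMA and Partek were used, with the build mm9. Per the series text, the submitters' own statistics modelled batch alongside genotype, but the batch of each array is not given. No source used here says whether batch effects were removed from the deposited values. The 6 arrays had medians of 8.01 to 8.02. The number of arrays limits the precision, and the table holds no background measure.

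The platform's annotation names 1 gene for 21496 probe sets, several for 1565 and none for 2193. All probe sets were fitted with limma 3.58.1 in R 4.3.3 (eBayes with intensity trend, Benjamini-Hochberg, threshold 0.05), DKO minus ApoE-KO, without pairing and with the replicate number as a block. Both fits were run on simulated data in which same-numbered arrays shared a built-in shift. The rest of the spread was scaled below that seen within groups, so recovery in the real data can differ. Changes of 0.75 were recovered at 58% without pairing and 76% with the block, and changes of 1.5 at 98% and 94%. Unchanged probe sets passed 2 times without pairing and 6 times with the block. The shift was built in, so the simulation does not test the pairing. Deviations of same-numbered arrays from their group means correlated at 0.60, 0.50 and 0.64 across probe sets, against -0.10 to -0.53 for different numbers. Deviations from a group mean cancel, so opposite signs are partly built in. On these values the numbers were treated as pairing the arrays, although no label says what they share.

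The genes and lists were chosen with earlier results of these data known. Up to 3 genes per list were named by smallest unadjusted p in the paired fit, with any that passed, and 3 nearest genes for each of the 3 genes of widest range. Alternatives to the unpaired fit were the replicate block, a filter at the 40th percentile, a second quantile normalization and centring on array medians. Others were array weights, robust eBayes or eBayes with no trend, and arrays or pairs left out. Sequences are from RefSeq (GRCm38.p6), which had windows for 4 of the 7 genes.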

Additional observations from a re-analysis of the deposited data

How the results depend on the processing

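Phex, Ank, Ibsp and Epyc kept the sign of their difference under each alternative run. With single arrays left out of the unpaired fit, Phex ran from 0.69 to 0.85, Ank from 0.020 to 0.23, Ibsp from 0.22 to 0.50 and Epyc from 0.81 to 0.96. Alpl turned negative with renewed quantile normalization (-0.0026), array weights (-0.056) and both replicate 1 arrays left out of the paired fit (-0.13), and ran from -0.054 to 0.15 with single arrays left out. Mgp turned to 0.014 without both replicate 1 arrays and ran from -0.067 to 0.0086 with single arrays left out, Sox9 from -0.011 to 0.20 and Tnfrsf11b from -0.018 to 0.28. The cause of these turns was not tested. Over all 25254 probe sets 0 passed without pairing and 44 with the replicate block. In the unpaired fit 8 passed without DKO replicate 3, and 0 with any other single array left out. In the paired fit 415, 0 and 48 of the 25254 passed without both arrays of replicate 1, 2 and 3. Of the 7 genes 0 passed without pairing and 1 with the block, and 1, 0 and 1 without those pairs. Of the 91 other genes 0 passed without pairing and 1 with the block, and 5, 0 and 1 without those pairs. The 5 were Epyc (0.92), Xpr1 (0.42), Ppa1 (-0.61) and, named after their values were seen, the osteoclast genes Ctsk (0.45) and Atp6v0d2 (0.44). With all arrays Ctsk differed by 0.22 and Atp6v0d2 by -0.23, so leaving out that pair turned the direction of Atp6v0d2, whose pairs stood at -1.57, 0.43 and 0.45. The DKO array left out there is the one with the lowest macrophage markers (8.73). Among the marker genes, the block also added the mesothelium genes Upk1b and Lrrn4 (higher in DKO) and the adipocyte genes Retn and Cidec (lower in DKO; limma, adjusted p = 0.0309, 0.0467, 0.0226 and 0.0467), and it changed no other call among the 7 genes and the gene lists. Ibsp and Epyc have no value above the 40th percentile filter, and none of the 7 genes had another probe set to try. With 3 arrays a group, small differences in the dim Ibsp probe set are not resolved.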
